A study of Rattus norvegicus with 18 samples.

Results

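The 10 enzymes described here make or break down eicosanoids, the lipid mediators that cells form from arachidonic acid. They were chosen by gene symbol for this function, and Lta4h was selected on its difference between OA and sham at 4-weeks, so the 4-week values of the enzymes below are a description, without p-values. All 10 were found, once each, among the 30643 genes of both the 4-week and the 12-week table. RNA was sequenced from CD11b+ cells, the monocyte and macrophage fraction taken from digested rat knee synovium on magnetic columns. Every library came from male wild type Sprague Dawley rats operated on at 12 weeks of age. OA rats had the anterior cruciate ligament and the medial meniscotibial ligament cut, which destabilizes the knee, whereas sham rats had the joint opened with both ligaments left intact. At 4-weeks there were 5 libraries per surgery in the labels, each from a pool of 4 rats, and at 12-weeks 4 libraries per surgery, each from a pool of 3 rats. The study's methods give 5 replicates per condition at both time points, so 12-week libraries that the labels do not list are not analysed here. The question asked of these genes was how their transcripts differed between OA and sham synovial macrophages at each time point.

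Arachidonic acid freed from membranes enters either of the routes examined here. In the leukotriene route, the lipoxygenase encoded by Alox5, helped by the protein encoded by Alox5ap, makes leukotriene A4, which Lta4h turns into leukotriene B4, an attractant for neutrophils, and which Ltc4s joins to glutathione to give the cysteinyl leukotrienes. In the prostanoid route, the cyclooxygenases encoded by Ptgs1 and Ptgs2 make prostaglandin H2, from which Ptges makes prostaglandin E2, Hpgds makes prostaglandin D2 and Tbxas1 makes thromboxane A2. Hpgd then inactivates prostaglandins. Prostaglandin E2 is known for sensitizing the nerve endings that signal joint pain, and cyclooxygenases are the targets of the non-steroidal anti-inflammatory drugs used in OA.

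RefSeq promoter windows of the GRCr8 assembly, from 250 bases before to 50 bases after the start of the gene, were found for 8 of the 10 enzymes, all but Alox5ap and Hpgds. The windows of Lta4h and Tbxas1 are shown because the levels of these genes ran closely together across libraries. Those of Ltc4s, which shares its substrate with Lta4h, and Ptges, whose OA and sham libraries did not overlap at 12-weeks, are shown beside them. Capitals mark matches on either strand to the motifs searched, which do not overlap one another in these windows. Lta4h lies on the plus strand (chr7:29856621-29856920), Tbxas1 on the plus strand (chr4:68631635-68631934), Ltc4s on the minus strand (chr10:35063545-35063844) and Ptges on the minus strand (chr3:34586938-34587237).
Lta4h: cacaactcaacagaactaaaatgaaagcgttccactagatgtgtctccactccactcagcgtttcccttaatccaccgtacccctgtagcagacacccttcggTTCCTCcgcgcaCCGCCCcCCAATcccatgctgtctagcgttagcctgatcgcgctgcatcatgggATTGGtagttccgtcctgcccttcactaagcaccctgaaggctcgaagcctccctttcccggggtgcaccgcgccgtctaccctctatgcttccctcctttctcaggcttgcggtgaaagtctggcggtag
Tbxas1: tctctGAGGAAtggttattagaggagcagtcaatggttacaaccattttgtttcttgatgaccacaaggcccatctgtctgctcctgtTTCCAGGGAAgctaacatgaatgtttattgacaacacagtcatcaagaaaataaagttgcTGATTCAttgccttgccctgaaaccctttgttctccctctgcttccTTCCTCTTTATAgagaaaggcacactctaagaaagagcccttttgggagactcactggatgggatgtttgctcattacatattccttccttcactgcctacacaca
Ltc4s: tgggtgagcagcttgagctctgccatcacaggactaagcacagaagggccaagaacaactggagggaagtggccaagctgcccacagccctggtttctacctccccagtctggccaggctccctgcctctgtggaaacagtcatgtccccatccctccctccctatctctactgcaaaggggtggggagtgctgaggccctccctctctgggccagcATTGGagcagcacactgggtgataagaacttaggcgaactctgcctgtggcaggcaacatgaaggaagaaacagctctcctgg
Ptges: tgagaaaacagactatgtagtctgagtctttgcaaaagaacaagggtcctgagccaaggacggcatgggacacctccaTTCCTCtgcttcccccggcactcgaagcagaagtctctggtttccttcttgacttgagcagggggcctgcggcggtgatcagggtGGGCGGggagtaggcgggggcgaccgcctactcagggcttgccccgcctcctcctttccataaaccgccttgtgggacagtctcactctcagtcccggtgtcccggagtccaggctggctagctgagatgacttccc
The core bound by PU.1, a factor of the myeloid lineage, was searched as GAGGAA and stood in the windows of Lta4h, Tbxas1, Ptges and Ptgs1, against 27.6% of all 33469 windows. The GC box, GGGCGG, stood in 5 of the 8 windows (Alox5, Hpgd, Lta4h, Ptges and Ptgs2) and in 33.1% of all windows, and the CCAAT box, CCAAT, in 3 (Lta4h, Ltc4s and Ptgs2) and in 37.5% of all. Only the window of Tbxas1, of the 8, held matches to the TATA box, TATAAA (14.2% of all windows), the AP-1 site, TGANTCA (7.33%), and the STAT spacing TTCNNNNGAA (7.28%). Its TATA box match was on the strand opposite to the gene, where the window reads TTTATA. The other STAT spacing, TTCNNNGAA, was in none of the 8 and in 8.87% of all windows. Such matches describe the letters only.

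Recovered reads per library ranged from 4662344 to 17235069 at 4-weeks, the lowest being sham replicate 3, and from 10976114 to 18080503 at 12-weeks. All 12 macrophage markers listed were measured at both time points, and they summed to between 142799 and 170985 normalised reads in OA and between 144622 and 150650 in sham libraries at 4-weeks. Markers of other cells were present in the sorted fraction too. At 4-weeks 9 endothelial markers summed to between 37164 and 50294 normalised reads over the 10 libraries, and 11 fibroblast markers to between 50575 and 119120. The 10 neutrophil markers summed to 13645 and 15587 in OA replicates 1 and 3 at 4-weeks and to between 1480 and 5983 in the other 8 libraries, and at 12-weeks to between 1375 and 4369 in OA and between 1626 and 5844 in sham. Each library thus describes a sorted fraction and not macrophages alone.

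At 4-weeks 9 of the 10 enzymes had a positive and 1, Hpgd, a negative log2 fold change of OA over sham, with a median of 0.20 against 0.03 for all 14861 genes tested. These log2 fold changes are of normalised reads plus 1 throughout. Lta4h was the only one of the 10 enzymes whose OA and sham libraries did not overlap, where 1.18% of all genes were higher in OA without overlap and 1.87% did not overlap in either direction. A gene was called where its adjusted p was under 0.05 and its log2 fold change reached 0.5 up or down. In limma no enzyme was called, as for all genes (0% called). DESeq2 on the recovered reads called 0 enzymes on both criteria (0.159% of all genes). On the adjusted p alone it took 1 (0.247% of all genes), which was Lta4h, a count that the selection fixed. Nothing is read from these 4-week counts.

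At 12-weeks 8 of the 10 enzymes had a positive and 2 a negative log2 fold change, with a median of 0.26 against -0.01 for all 14666 genes tested. Tbxas1 and Ptges, the synthases of thromboxane A2 and prostaglandin E2, were higher in all 4 OA libraries than in any sham library, with ratios of 1.49 and 1.68 on the fitted scale. Ptgs2, the inducible cyclooxygenase, had the lowest log2 fold change of the 10, at -0.37, with overlapping groups. The limma test called none of the 10 and none of all genes (0%), with adjusted p-values from 0.278 to 0.852 for the enzymes. At an unadjusted p under 0.05 there were 4 enzymes (Tbxas1, Ptges and Lta4h higher, Ptgs2 lower) against 12.4% of all genes, and 2 did not overlap, both higher in OA, against 2.85% of all genes higher without overlap and 6.29% without overlap in either direction. DESeq2 on the recovered reads called 1, Tbxas1, on both criteria, against 0.671% of all genes. In bulk libraries such as these, fewer cells of a type and less RNA per cell cannot be told apart.

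**Figure D1:**
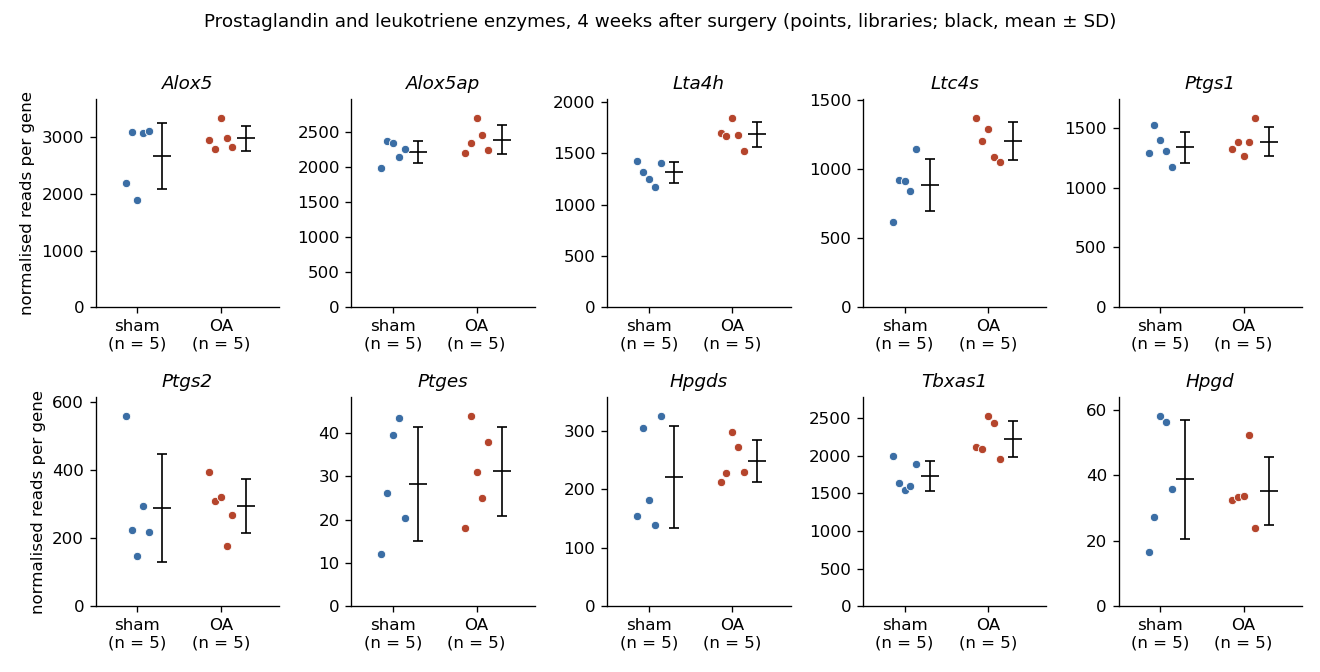
Normalised reads of the 10 enzymes in each library 4 weeks after surgery, with 1 panel per gene, an axis from 0, blue points for the 5 sham and red points for the 5 OA libraries, and black bars for the mean ± SD. The 5 OA libraries of Lta4h lie between 1517 and 1848, above the sham libraries at 1176 to 1424, and the groups of every other enzyme overlap.

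In the leukotriene route, Lta4h (ENSRNOG00000004494) measured 1702, 1667, 1848, 1679 and 1517 normalised reads in OA replicates 1 to 5 and 1424, 1318, 1249, 1176 and 1403 in sham replicates 1 to 5 at 4-weeks. All 5 OA libraries lay above all 5 sham libraries, by 93.6 normalised reads between the nearest pair. The log2 fold change was 0.36 with a standard error (SE) of 0.08, a ratio of 1.28. This is the difference that selected the gene, under the log2 minimum of 0.5. OA replicates 1 and 3, the libraries with the most neutrophil marker reads, were the highest for Lta4h. Sham replicate 4, with the most such reads among sham libraries (5983), was the lowest for Lta4h. For macrophage markers, OA replicate 3 had the highest and OA replicate 5 the lowest sum of the OA libraries (170985 and 142799), as for Lta4h. Sham replicate 1 had the lowest macrophage marker sum of the sham libraries (144622) and was the highest of them for Lta4h. The part of neutrophil and macrophage markers in these values was not tested. At 12-weeks Lta4h measured 1654, 2001, 1763 and 2121 normalised reads in OA and 1464, 1568, 1300 and 1805 in sham replicates 1 to 4. The groups overlapped there, because sham replicate 4 was above OA replicates 1 and 3. Macrophage marker sums at 12-weeks were 190436, 226232, 196897 and 226094 in OA replicates 1 to 4. In sham replicates 1 to 4 they were 179359, 185278, 158373 and 224021, the same order as Lta4h. Their part in the 12-week Lta4h values was not tested. The 12-week log2 fold change was 0.30 (SE 0.11, 95% interval 0.05 to 0.54), with an adjusted p of 0.348 in limma and 0.270 in DESeq2. An exact permutation test over the 8 libraries (two-sided) gave p = 0.0857.

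Ltc4s (ENSRNOG00000003244), which competes with Lta4h for leukotriene A4, measured 1376, 1209, 1295, 1089 and 1052 normalised reads in OA and 621, 923, 914, 840 and 1147 in sham libraries at 4-weeks. The lowest sham library, replicate 1, stood well under the others, whereas sham replicate 5 was above OA replicates 4 and 5. The highest OA libraries were again replicates 1 and 3, those with the most neutrophil marker reads. They also led the OA libraries in the sum of 7 eosinophil markers, 937 and 1231 normalised reads. OA replicates 2, 4 and 5 had 659, 665 and 376, and sham libraries 508 to 1051. At 12-weeks the eosinophil sums were 585 to 1081 in OA and 847 to 1887 in sham, and all 6 markers tested were lower in OA. The part of neutrophil and eosinophil markers in the Ltc4s values was not tested. The 4-week log2 fold change was 0.46 (SE 0.14). At 12-weeks Ltc4s measured 1364, 1811, 1894 and 1774 in OA and 1522, 932, 1285 and 1697 in sham libraries. The 3 highest OA libraries were above every sham library and OA replicate 1 was among the sham values, for a log2 fold change of 0.36 (SE 0.17), and limma gave an adjusted p of 0.427. Mast cells, which also make cysteinyl leukotrienes, were followed by 10 measured markers. The markers summed to between 1513 and 2531 normalised reads in OA and between 1981 and 3013 in sham at 4-weeks, and 9 of the 10 tested were lower in OA. At 12-weeks they summed to between 2254 and 4405 in OA and between 3145 and 5363 in sham, and 9 of 9 tested were lower in OA, the opposite sign to Ltc4s. No listed mast cell marker that was measured was at 0 in every library, and their part in the Ltc4s values was not tested.

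Upstream of both, Alox5 (ENSRNOG00000012972), the lipoxygenase that starts the route, ranged from 2803 to 3351 normalised reads in OA and from 1892 to 3113 in sham at 4-weeks. At 12-weeks it ranged from 3416 to 4469 in OA and from 2728 to 4684 in sham. The spread among sham libraries was wider than the difference between groups at both time points, with log2 fold changes of 0.18 (SE 0.14) and 0.13 (SE 0.15). Alox5ap (ENSRNOG00000000907), which presents arachidonic acid to that lipoxygenase, ranged from 2200 to 2705 in OA and from 1983 to 2372 in sham at 4-weeks. At 12-weeks it ranged from 3181 to 3936 in OA and from 2275 to 3935 in sham. Its log2 fold changes were 0.11 (SE 0.08) at 4-weeks and 0.23 (SE 0.15) at 12-weeks. The adjusted p-values in limma at 12-weeks were 0.744 for Alox5 and 0.539 for Alox5ap, and the 95% intervals of -0.21 to 0.47 and -0.10 to 0.55 include differences of either sign. All 4 leukotriene enzymes had positive fold changes at both time points. Among all genes tested, 57.1% were positive at 4-weeks and 47.5% at 12-weeks. The 4-week sign of Lta4h was fixed by its selection, and the 12-week sign of Alox5 turned (-0.0028) without sham replicate 3. None of the 4 passed the test at 12-weeks.

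**Figure D2:**
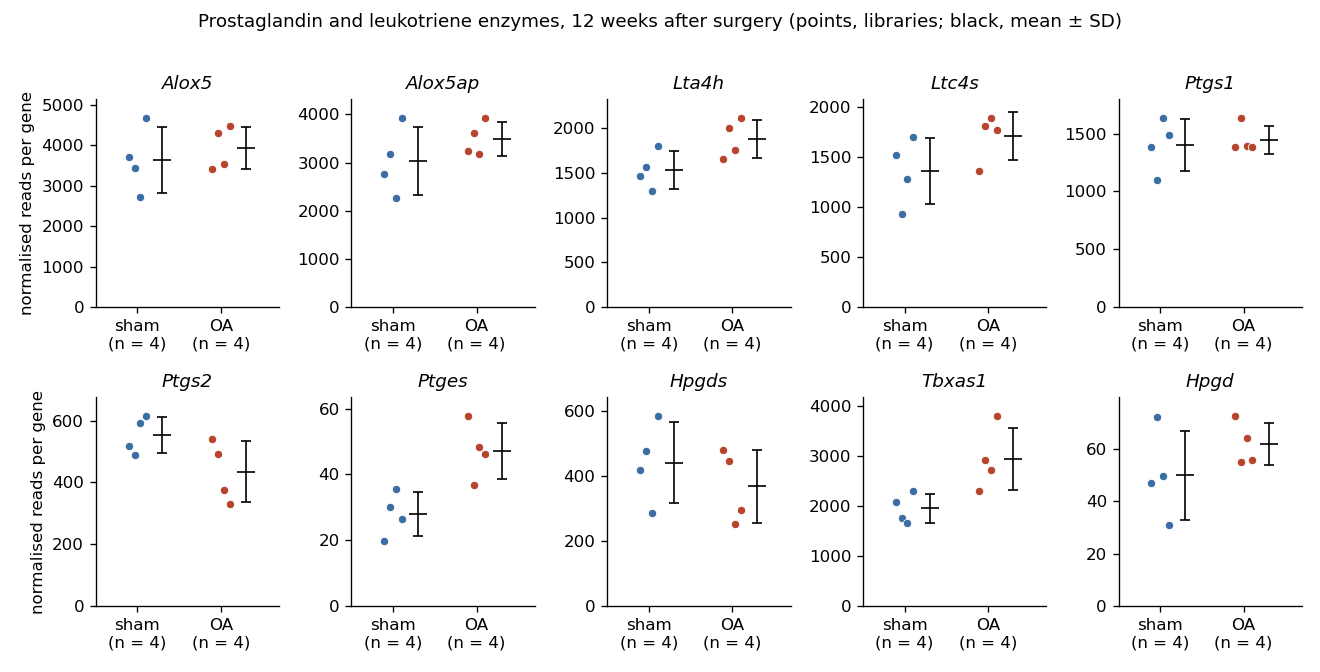
Normalised reads of the 10 enzymes in each library 12 weeks after surgery, drawn as for 4 weeks with 4 sham and 4 OA libraries. The groups are apart for Tbxas1 (OA from 2306 to 3788, sham from 1667 to 2298) and Ptges (OA from 36.8 to 57.6, sham from 19.6 to 35.6) and overlap for the other 8 enzymes.

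Of the cyclooxygenases, Ptgs1 (ENSRNOG00000007415), the constitutive enzyme, ranged from 1262 to 1586 normalised reads in OA and from 1168 to 1523 in sham at 4-weeks. At 12-weeks it measured 1380, 1630, 1393 and 1385 in OA and 1384, 1101, 1638 and 1487 in sham libraries. Apart from OA replicate 2, the OA libraries were within 13.5 normalised reads of each other, and all 4 lay inside the sham range. The log2 fold changes were 0.05 (SE 0.09) at 4-weeks and 0.06 (SE 0.11) at 12-weeks, where the adjusted p in limma was 0.852 and the 95% interval ran from -0.20 to 0.31.

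Ptgs2 (ENSRNOG00000002525), the inducible enzyme, measured 394, 309, 320, 178 and 268 normalised reads in OA and 557, 224, 146, 294 and 217 in sham libraries at 4-weeks. OA replicates 1 and 3 were the highest OA libraries here too, and the part of neutrophil and eosinophil markers was not tested. Both the highest and the lowest of all 10 were sham libraries, replicates 1 and 3, and the log2 fold change of 0.13 (SE 0.31) was smaller than its error. At 12-weeks Ptgs2 measured 542, 493, 375 and 330 in OA and 519, 488, 591 and 614 in sham libraries. OA replicates 3 and 4 were below every sham library, and OA replicates 1 and 2 lay among the sham values. The 12-week log2 fold change was -0.37 (SE 0.15, 95% interval -0.70 to -0.03), with an adjusted p of 0.378 in limma and 0.366 in DESeq2. The exact permutation test over the 8 libraries (two-sided) gave p = 0.143.

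Among the terminal synthases, Tbxas1 (ENSRNOG00000007918), thromboxane synthase, measured 2115, 2098, 2525, 2441 and 1961 normalised reads in OA and 1997, 1636, 1541, 1597 and 1896 in sham libraries at 4-weeks. Sham replicate 1 was above OA replicate 5, and the other 4 OA libraries were above every sham library, for a log2 fold change of 0.36 (SE 0.10). At 12-weeks it measured 2306, 2924, 2725 and 3788 in OA and 2085, 1764, 1667 and 2298 in sham libraries. The groups did not overlap, though OA replicate 1 cleared sham replicate 4 by only 8.01 normalised reads and OA replicate 4 was far above the rest. The 12-week log2 fold change was 0.58 (SE 0.15, 95% interval 0.25 to 0.91), a ratio of 1.49. Its adjusted p was 0.278 in limma, 0.273 in edgeR and 0.0321 in DESeq2, so the call was made by DESeq2 alone. The exact permutation test over the 8 libraries (two-sided) gave p = 0.0286, the smallest p that 4 against 4 libraries allow. The DESeq2 call held without OA replicate 1, sham replicate 3 or sham replicate 4. It was lost without OA replicate 2 (adjusted p = 0.0988), OA replicate 3 (0.0776), OA replicate 4 (0.194), sham replicate 1 (0.0824) or sham replicate 2 (0.118).

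Platelets are the classic source of thromboxane, and their markers were followed together with those of macrophages. The 8 platelet markers listed summed to between 3415 and 4050 normalised reads in OA and between 2933 and 4130 in sham at 12-weeks. Gp1bb was at 0 in every library. Of the 5 markers tested, 3 were higher and 2 lower in OA, and 1 had an unadjusted p under 0.05 in limma. The mean log2 level over these 5 was 6.69 in OA and 6.76 in sham. The sums went the other way, with means of 3688 in OA and 3433 in sham. At 12-weeks 10 of 12 macrophage markers were higher in OA, with sums from 190436 to 226232 in OA and from 158373 to 224021 in sham, the highest in OA replicate 2 and the lowest in sham replicate 3. The part of platelet and macrophage markers in the Tbxas1 values was not tested.

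Ptges (ENSRNOG00000006320), the inducible prostaglandin E synthase, was a sparse transcript, with 13 to 66 recovered reads per library over both time points. At 4-weeks it measured 18.03, 43.8, 30.9, 24.9 and 38.0 normalised reads in OA and 12.0, 26.2, 39.5, 43.4 and 20.3 in sham libraries, with a log2 fold change of 0.21 (SE 0.35) and wide overlap. At 12-weeks it measured 57.6, 36.8, 48.3 and 46.1 in OA and 19.6, 30.1, 35.6 and 26.4 in sham libraries. All 4 OA libraries were higher, with OA replicate 2 only 1.15 normalised reads above sham replicate 3, where 1 read is worth 1.02 normalised reads. The 12-week log2 fold change was 0.75 (SE 0.22, 95% interval 0.27 to 1.23), the largest of the 10 enzymes. It did not pass the test, with an adjusted p of 0.280 in limma, 0.282 in edgeR and 0.144 in DESeq2. The exact permutation test (two-sided) gave p = 0.0286, again unadjusted and fixed by groups that do not overlap.

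Fibroblasts of the synovium make prostaglandin E2 as well, and fibroblast markers were higher in OA. At 12-weeks 10 of 11 measured markers were higher and Thy1 was lower, and all 11 had an unadjusted p under 0.05. Their sums were 89889 to 117099 normalised reads in OA and 59605 to 93605 in sham libraries, and none was at 0. At 4-weeks 10 of 11 were higher, with sums of 77345 to 119120 in OA and 50575 to 118420 in sham. Their part in the values of Ptges, Tbxas1 and Lta4h was not tested.

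Hpgds (ENSRNOG00000006583), the hematopoietic prostaglandin D synthase, measured 213, 228, 299, 273 and 230 normalised reads in OA and 155, 305, 181, 138 and 325 in sham libraries at 4-weeks. At 12-weeks it measured 480, 445, 251 and 295 in OA and 417, 477, 287 and 583 in sham libraries. The groups overlapped at both time points, and OA replicates 3 and 4 were low beside OA replicates 1 and 2 at 12-weeks. The log2 fold change was 0.25 (SE 0.23) at 4-weeks and -0.27 (SE 0.25) at 12-weeks, where the adjusted p in limma was 0.662. Hpgds is a mast cell enzyme too, and the mast cell marker sums given beside Ltc4s were lower in OA in 9 of 9 markers at 12-weeks, the sign that Hpgds had then, and in 9 of 10 at 4-weeks, the opposite sign to Hpgds. By library, mast cell marker sums in OA at 4-weeks were 1513, 1767, 2531, 2314 and 2017 in replicates 1 to 5, the same order as Hpgds. In sham, replicate 4 was the lowest for Hpgds but its sum, 2573, was above those of replicates 1, 2 and 5. At 12-weeks the sums were 4405, 3561, 2540 and 2254 in OA replicates 1 to 4. In sham replicates 1 to 4 they were 3397, 5363, 3145 and 4856. The part of mast cell markers in the Hpgds values was not tested.

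Hpgd (ENSRNOG00000010610), the dehydrogenase that inactivates prostaglandins, ranged from 23.9 to 52.3 normalised reads in OA and from 16.6 to 58.0 in sham at 4-weeks, with 18 to 63 recovered reads per library. At 12-weeks it measured 72.4, 55.1, 64.3 and 55.8 in OA and 46.8, 72.2, 49.6 and 31.0 in sham libraries. Sham replicate 2 was close to the highest OA library and the other 3 sham libraries were below every OA library. The log2 fold change was -0.04 (SE 0.33) at 4-weeks and 0.36 (SE 0.23) at 12-weeks, with an adjusted p of 0.535 in limma.

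**Figure D3:**
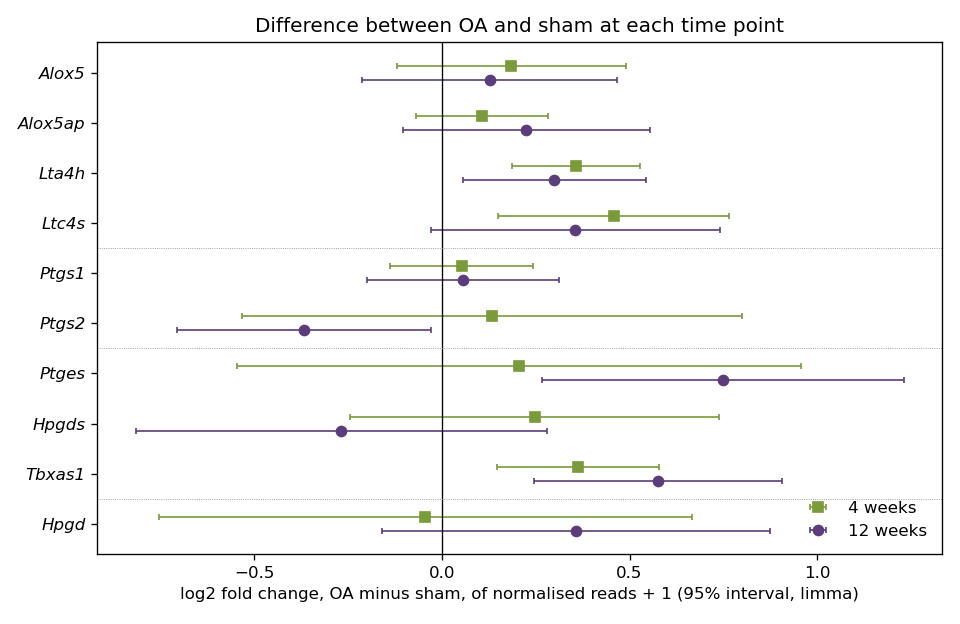
Log2 fold change of OA minus sham for each enzyme at 4 weeks (green squares) and 12 weeks (purple circles), with bars for the 95% interval from limma and dotted lines between roles. The intervals of both time points overlap for every enzyme, and Ptges at 12 weeks has the largest value, 0.75. Lta4h was selected on its 4-week difference, so its 4-week interval is a description and not a test.

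Whether the OA effect itself differed between time points was tested as an interaction over all 18 libraries, and it called no enzyme and no gene (0% of 15107). The difference of the log2 fold changes, 12-weeks minus 4-weeks, ran from -0.49 for Hpgds (95% interval -1.24 to 0.27) to 0.55 for Ptges (95% interval -0.37 to 1.48). For Ptgs2 it was -0.47 (95% interval -1.28 to 0.34) and for Tbxas1 0.24 (95% interval -0.14 to 0.62). The adjusted p-values of the 9 enzymes other than Lta4h were 0.937 to 0.988 in limma and 0.998 for all 9 in DESeq2. No difference in effect between 4- and 12-weeks was detected at this number of libraries, and several of these intervals are wide.

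Pairs of enzymes that act on 1 substrate were also set against each other within each library, as log2 ratios of normalised reads without a test. Since reads are not divided by transcript length, only the differences between libraries can be read from such ratios. For Lta4h over Ltc4s at 4-weeks the ratio ranged from 0.31 to 0.62 in OA and from 0.29 to 1.20 in sham, and at 12-weeks from -0.10 to 0.28 in OA and from -0.06 to 0.75 in sham. The highest ratio at each time point was in a sham library, replicate 1 at 4-weeks and replicate 2 at 12-weeks, the libraries with the lowest Ltc4s. For Ptgs2 over Ptgs1 at 12-weeks the 4 OA libraries had a ratio of -1.76 ± 0.31 (SD) and the 4 sham libraries one of -1.33 ± 0.13 (SD), with OA replicate 1 inside the sham range. For Ptges over Hpgds at 12-weeks the 4 OA libraries had -2.93 ± 0.53 (SD) and the 4 sham libraries -3.97 ± 0.67 (SD), which are 1.04 apart, with overlap between OA replicates 1 and 2 and sham replicate 3. At 4-weeks the 5 OA libraries had -3.05 ± 0.53 (SD) and the 5 sham libraries -3.02 ± 1.02 (SD). All 3 ratios overlapped between OA and sham at both time points.

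**Figure D4:**
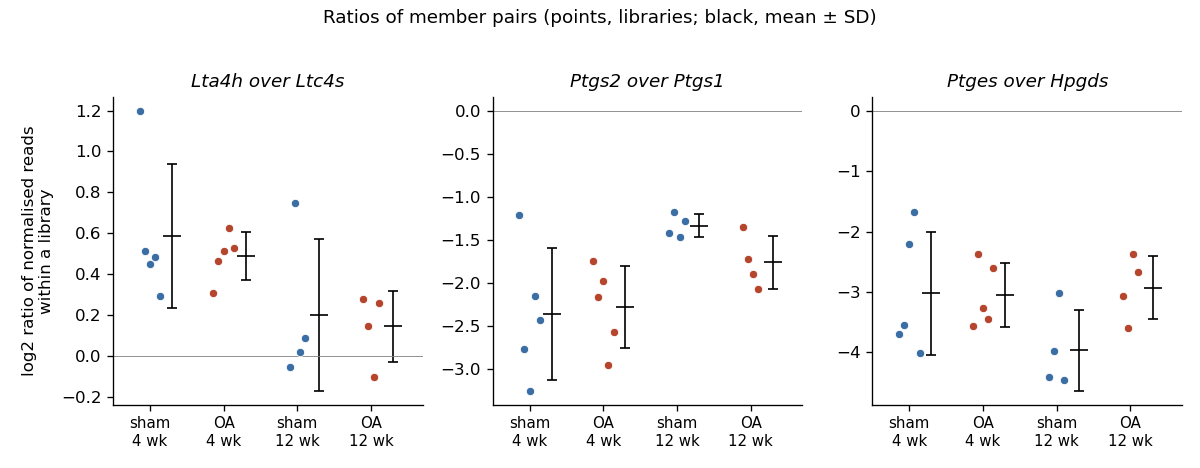
Log2 ratio of the normalised reads of Lta4h over Ltc4s, Ptgs2 over Ptgs1 and Ptges over Hpgds within each library, by surgery and time point, with points for libraries and black bars for the mean ± SD. OA and sham overlap in all panels, and Ptges over Hpgds at 12 weeks has the largest difference between means, 1.04.

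Other genes of eicosanoid biology were followed from a list of 47, of which 43 were in the tables, and Ptgis, Ggt5, Ptgr3 and Ptgdr are not analysed here. With a mean of at least 10 normalised reads, 34 were tested at 4-weeks and 35 at 12-weeks. The 4-week fold changes of OA over sham were positive for 17 and negative for 17, with a median of 0.0012 on the log2 scale, and limma called none. Of the best expressed genes of each role, Pla2g2d, Ptges3, Akr1b1, Mgst2, Dpep2, Slco2a1, Abcc1, Ptger1, Ptgir, Ltb4r and Cysltr1 had log2 fold changes between -0.30 (Ltb4r) and 0.29 (Cysltr1) at that time. Only Pla2g15, a lysosomal phospholipase, with a log2 fold change of 0.24 (SE 0.07), and Pla2g5, a secreted phospholipase, with -0.69 (SE 0.26), had an unadjusted p under 0.05, or 5.88% of the 34 against 7.92% of all genes. The 12-week fold changes were positive for 14 and negative for 21, with a median of -0.05, limma called none, and 6 had an unadjusted p under 0.05, or 17.1% of the 35 against the 12.4% of all genes given above.

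These 6 stood at several steps of the routes. Dpep2, a dipeptidase that trims leukotriene D4 to leukotriene E4, measured 889, 988, 801 and 771 normalised reads in OA and 1326, 1117, 1269 and 1142 in sham libraries at 12-weeks. All 4 OA libraries were lower, at a log2 fold change of -0.50 (SE 0.09), and limma gave an adjusted p of 0.264. In DESeq2 the adjusted p of Dpep2 was 0.00256 with a log2 fold change of -0.49, just short of the fold minimum, and it was the only 1 of the list below 0.05 there, against 0.932% of all genes on the adjusted p alone. Ggt1, the transferase that takes leukotriene C4 to leukotriene D4, was at 9.19 to 23.6 in OA and 4.60 to 11.3 in sham, with a log2 fold change of 1.03 (SE 0.35). That value rests on 4 to 22 recovered reads per library.

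Of the receptors, Tbxa2r, which binds thromboxane A2, measured 10.5, 8.17, 13.9 and 10.7 normalised reads in OA and 15.1, 18.1, 24.2 and 18.4 in sham libraries at 12-weeks. It was lower in all 4 OA libraries, opposite in sign to the synthase Tbxas1, at a log2 fold change of -0.76 (SE 0.24) with an adjusted p of 0.317 in limma, from 8 to 21 recovered reads. Ptgir, the prostacyclin receptor, was at 474 to 778 in OA and 727 to 950 in sham (log2 fold change -0.44, SE 0.14), and overlapped in 1 OA library. Ptger4, a prostaglandin E2 receptor, had a log2 fold change of -0.08 (SE 0.09), and Cysltr1, a cysteinyl leukotriene receptor, of -0.14 (SE 0.09). Ltb4r, a receptor of leukotriene B4, was at -0.05 (SE 0.24). Over the 8 prostanoid receptors tested, 2 (25%) were higher in OA at 4-weeks, Ptger1 and Ptger4, against 57.1% of all genes. At 12-weeks 2 others (25%) were higher, Ptger2 (0.10, SE 0.30) and Ptgfr (0.39, SE 0.26), against 47.5% of all genes. The 95% intervals of these values included 0, and nothing is read from their signs.

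Among the remaining steps, Prxl2b, a prostaglandin F synthase, was at 111 to 160 normalised reads in OA and 79.9 to 110 in sham at 12-weeks, without overlap (log2 fold change 0.42, SE 0.15). Ptgr1, a reductase that inactivates leukotriene B4 and prostaglandins, was at 147 to 198 in OA and 218 to 247 in sham, without overlap (log2 fold change -0.42, SE 0.12). In limma the adjusted p was 0.332 for Prxl2b and 0.278 for Ptgr1. The genes of the list without overlap at 12-weeks were thus Prxl2b, higher in OA, and Dpep2, Ptgr1 and Tbxa2r, lower, or 4 of 35 against the 6.29% of all genes without overlap in either direction. The better expressed genes of the other roles were close to 0 at 12-weeks: Ptges3 at -0.01 (SE 0.07), Abcc1, a leukotriene C4 exporter, at 0.03 (SE 0.06), Pla2g2d, a secreted phospholipase, at 0.06 (SE 0.18) and Pla2g15 at 0.07 (SE 0.11). Slco2a1, a prostaglandin transporter, was at -0.13 (SE 0.17), Akr1b1, an aldose reductase with prostaglandin F synthase activity, at 0.16 (SE 0.08), and Mgst2, a glutathione transferase that can make leukotriene C4, at -0.24 (SE 0.13).

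**Figure D5:**
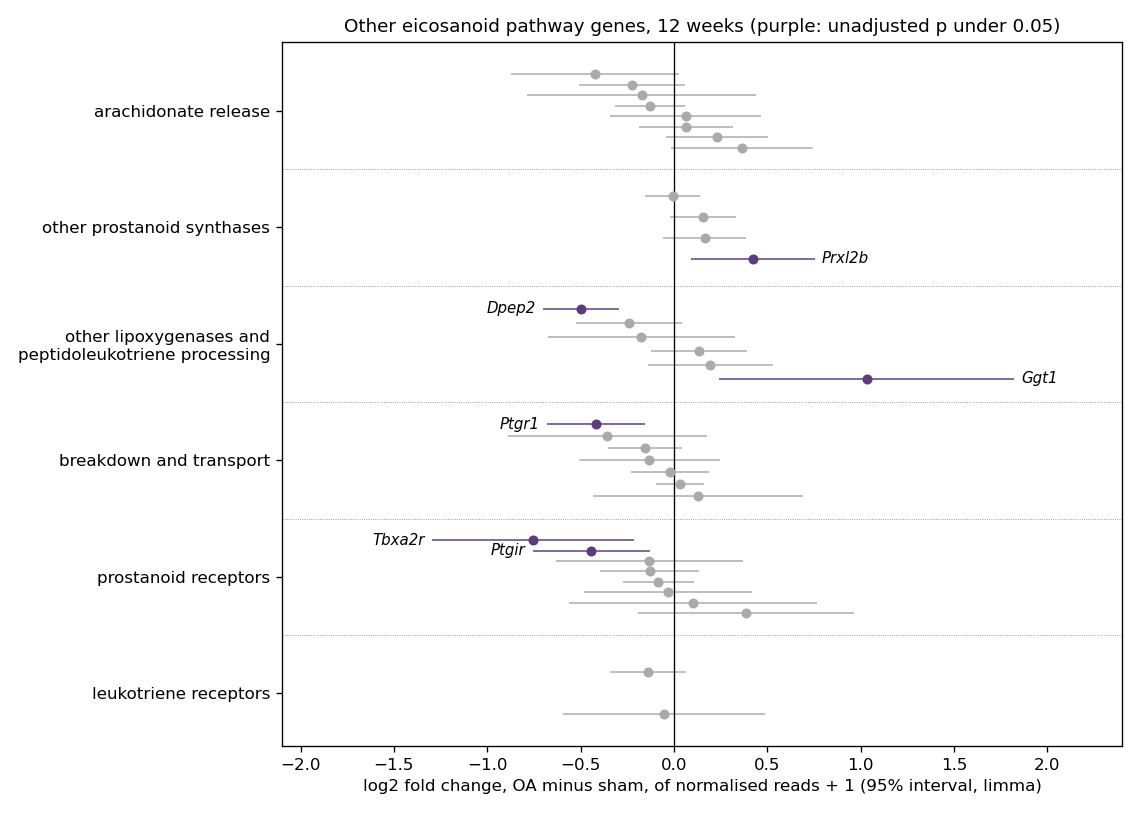
Log2 fold change of OA minus sham at 12 weeks for the 35 other eicosanoid pathway genes tested, grouped by role, with bars for the 95% interval from limma. The 6 named genes in purple had an unadjusted p under 0.05, with Ggt1 (1.03) and Prxl2b (0.42) above 0 and Tbxa2r (-0.76), Dpep2 (-0.50), Ptgir (-0.44) and Ptgr1 (-0.42) below it.

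Finally, the genes whose log2 levels were most like those of Lta4h were sought among the 14419 genes tested at both time points, ranked by the lower of the Pearson r over the 10 libraries of 4-weeks and the 8 of 12-weeks. They were Pnp (r = 0.956 and 0.975), Cmtm7 (0.951 and 0.955) and Arl11 (0.921 and 0.957). Tbxas1 ranked 5 (0.941 and 0.915), the next enzyme of the list was Ltc4s at rank 573 (0.671 and 0.614), and Ptgs2 ranked lowest of the 9, at 11373 (0.276 and -0.594). These values are a description over libraries that share the OA and sham difference and the scaling of each table.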

How the data were processed

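Libraries of CD11b+ synovial cells were assigned to surgery and time point by their labels. The authors, per the labels and methods, checked reads with fastp 0.20.0, aligned them to Rnor_6.0 with STAR 2.7.6a, removed duplicates, counted reads with featureCounts 2.0.0 and scaled them with DESeq2 1.24.0 within each time point, so levels were not compared across time points. Whether the counting used strand is not given in the sources used here. The deposited tables hold these normalised reads, a signal that is never negative, and the authors' log2 fold changes, standard errors, Wald statistics, p-values and adjusted p-values, which were not used. In every library 100% of values were whole reads once divided by the value of 1 read (tolerance 0.01), which recovered the counts.

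OA and sham were compared in limma 3.58.1 (R 4.3.3) with a mean-variance trend on log2 of normalised reads plus 1, for genes averaging at least 10, with Benjamini-Hochberg adjustment over all genes tested. DESeq2 1.42.0 and edgeR 4.0.16 on the recovered reads were alternatives, as were pseudocounts of 0.5 and 5, other minimum means (1 read, or 50), TMM scaling, no fold minimum, a replicate block and leaving out each library. DESeq2 with a block, no fold minimum or a library left out was added after seeing the data. The interaction used log2 CPM (TMM, prior count 2). Fits were tested on simulated data. A count of 3 reads was worth 2.06 to 6.96 normalised reads at 4-weeks and 2.27 to 3.82 at 12-weeks, for counting error only. Libraries are separate pools of rats.

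The enzymes, lists and tests were chosen with earlier results of these data known. Genes named beyond the enzymes have an unadjusted p under 0.05 or no overlap, are the 2 highest of their role, or are the 3 most like Lta4h. Promoter windows, joined by symbol, came from RefSeq on GRCr8, not the authors' assembly.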

Additional observations from a re-analysis of the deposited data

Results flagged for a closer look

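Of 40 groups of libraries examined (10 enzymes in 4 groups), 1 held a library far from the others, where chance alone gives about 1 in 20. Ptgs1 in OA replicate 2 at 12-weeks measured 1630 normalised reads, and the other 3 OA libraries measured 1380 to 1393. The gap was 0.946 of the range of the group. The same library had the highest macrophage marker sum at 12-weeks, 226232 normalised reads. OA replicate 4, with a sum of 226094, was among the other 3 OA libraries for Ptgs1. The part of these markers in the value was not tested.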

How the results depend on the processing

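The number of enzymes called was 0 at 4-weeks, 0 at 12-weeks and 0 for the difference between time points in every limma and edgeR setting run. With DESeq2 it became 1 at 12-weeks (Tbxas1), and between 0 and 1 when a library was left out. At 4-weeks DESeq2 called 0, became 1 with no fold minimum (Lta4h), and ranged from 0 to 1 over the left-out libraries, the 1 being Ltc4s without sham replicate 5. Lta4h was selected on that comparison, so its counts are a description from which nothing is read. On the adjusted p alone in DESeq2 it passed in 7 of 10 fits with a library left out. It did not pass on the adjusted p alone with the replicate block. Over the 16 limma and edgeR settings, the adjusted p of Tbxas1 at 12-weeks ranged from 0.0892 to 0.637 and its log2 fold change from 0.45 to 0.68. The replicate block left the number called at 0 at both time points in limma (adjusted p = 0.0892 for Tbxas1 at 12-weeks), and DESeq2 with the block still called 1 at 12-weeks (Tbxas1, adjusted p = 0.000388). The numbers did not pair the libraries: correlations of same-numbered libraries ran from -0.131 to 0.298, and of the 9 numbers, replicate 3 at 12-weeks alone correlated best with its own.

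Of the fold changes, Ptgs2 at 4-weeks turned to -0.0084 in edgeR. With a library left out, Ptgs2 ranged from -0.072 to 0.41, Ptges from -0.053 to 0.39 and Hpgd from -0.30 to 0.13 at 4-weeks, and Alox5 from -0.0028 to 0.26 and Ptgs1 from -0.055 to 0.14 at 12-weeks. The cause was not tested. No other direction turned among the 10 enzymes. A mean of at least 50 removed Ptges at both time points and Hpgd at 4-weeks. Ptges and Hpgd are limited by depth, with at most 84 recovered reads in any library.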
